A study of Bos taurus with 2 samples.

Results

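The microRNAs (miRNAs) miR-192, miR-194, miR-215 and miR-122 were followed in small RNA sequencing of bovine lung. Rows of the deposited table were taken as members when their name, without species prefix, arm ending, copy number and isoform suffix, was one of these 4. The rule found 11 of 2271 rows, with 10 distinct sequences: 2 rows of miR-192, 4 of miR-194, 3 of miR-215 and 2 of miR-122. Cattle names stood on 5 of the 11 rows, and the others carried human, mouse, hamster or opossum names.

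The study had 2 libraries, 1 from collapsed lungs and 1 from normal lungs, both labelled as lung tissue of Bos taurus. For each, total RNA of 4 neonatal cows had been pooled, and per the series text the animals were cloned or normal. The sample labels themselves do not say that the collapsed lungs were those of the clones. Breed, any treatment and age in days are not given in the labels used here. Because cows were pooled before sequencing, nothing measures the spread between animals, and no difference between the libraries has a replicate check or a test. The intervals given here are 95% intervals that cover counting error only.

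A miRNA guides silencing proteins to mRNAs that pair with its seed, bases 2 to 8 from the 5′ end, and lowers their output. miR-192 and miR-215 are paralogs of epithelial tissues such as intestine and kidney, and each is encoded beside a copy of miR-194, so that a primary transcript can yield a pair of miRNAs. In human cells these 3 are known as p53-responsive miRNAs. miR-122 is the dominant miRNA of hepatocytes, where it acts in lipid metabolism, and it also circulates in blood plasma.

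The sequences of the 4 abundant strands, as the deposited table gives them, show which members share a seed. They are written 5′ to 3′ with the seed in capitals.
miR-192: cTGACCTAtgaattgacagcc
miR-215: aTGACCTAtgaattgacagaca
miR-194: tGTAACAGcaactccatgtgga
miR-122: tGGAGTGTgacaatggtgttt
miR-192 and miR-215 have the same seed, while miR-194 and miR-122 each have their own. Over the 21 bases compared, miR-192 and miR-215 are identical at 19, and they differ by C1A and C20A, counted from the 5′ end of miR-192 with its base first. The shared seed TGACCTA stood on 3 rows of the table, all of them members, and the miR-122 seed GGAGTGT on 1 row. The miR-194 seed GTAACAG stood on 5 rows, of which 3 were outside the rule because they are named miR-194b, after the pig miRNA. These 3 rows held 4 reads in collapsed lungs and 0 in normal lungs, and the sequence on 2 of them differs from miR-194 by A10G, outside the seed.

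The remaining strands were scarce, and they are shown because they are the opposite arms of the same precursors.
hsa-miR-192-3p: cTGCCAATtccataggtcaca
hsa-miR-194-3p: cCAGTGGGgctgctgttatctg
cgr-miR-215-3p: tCTGTCATttctgtaggccaatg
hsa-miR-122-3p: aAACGCCAttatcacactaa
No other row of the table had the seed of any of these 4 arms. A row named for mouse miR-194-1-3p and an opossum-named row of miR-215 that ends 1 base later complete the 11.

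In the RefSeq annotation of the cattle assembly ARS-UCD2.0, MIR192 and MIR194-2 neighbour each other within the span of EHD1. MIR215 and MIR194-1 likewise neighbour each other within the span of IARS2. The annotation also holds genes with the symbols MIR194B-2, overlapping MIR194-2, and MIR194B, overlapping MIR194-1. Their sequences were not compared with those of the pig-named miR-194b rows. MIR122 overlaps no other annotated gene. The table was made on another build, so no coordinates are given. Mature miR-194 is listed on 2 rows with equal sequence and equal reads, so its reads cannot be assigned to either of its loci.

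Reads over all rows numbered 2822876 for collapsed lungs and 4550911 for normal lungs. A level is given as reads per 1000000 of the library's reads (RPM), and a row with 3 reads stood at 1.06 RPM in collapsed lungs and at 0.659 RPM in normal lungs. Of the 2271 rows, 487 had a mean of at least 10 RPM over the libraries and count as measured. Over these the median log2 ratio, collapsed over normal, was 0.09, with quartiles of -0.18 and 0.34. The 3 other scalings tried moved the log2 ratios by -0.16, -0.12 and -0.13, so a ratio this near to 1 has no fixed sign.

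All 4 miRNAs were detected in both lung libraries, in the same order of level, and miR-122 alone among them differed by about 2-fold between the libraries. The 11 rows together took 0.160% of reads in collapsed lungs and 0.148% in normal lungs. miR-192 made up 59.9% of these member reads in collapsed lungs and 60.2% in normal lungs. miR-194 made up 33.6% and 31.9%, and miR-215 5.34% and 5.60%, in collapsed and in normal lungs. miR-122 made up 1.08% of the member reads in collapsed lungs and 2.34% in normal lungs. In bulk tissue, fewer cells of a type and less of a miRNA per cell cannot be told apart.

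**Figure D1:**
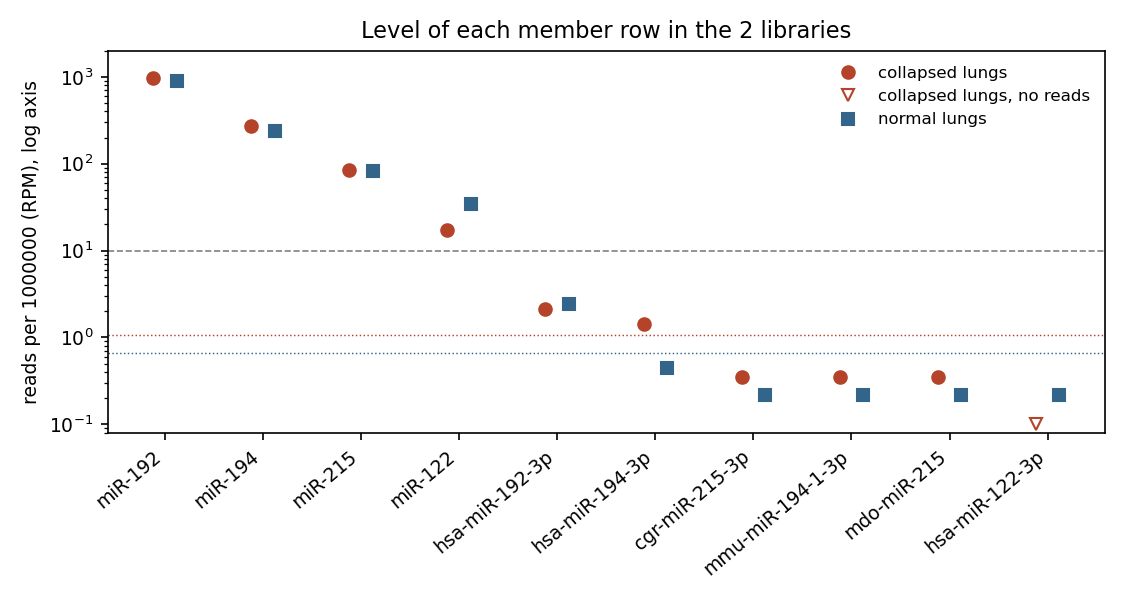
Level in RPM (log axis) of each distinct member row in collapsed lungs (circles) and normal lungs (squares), 1 library each; the dashed line is the minimum of 10 RPM, the dotted lines are the level of 3 reads in each library, and the open triangle marks a row without reads. The rows of miR-192, miR-194 and miR-215 nearly coincide in both libraries, miR-122 is at 17.4 RPM in collapsed and 34.3 RPM in normal lungs, and the 6 other rows lie under the minimum.

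miR-192, the most abundant member, had 2708 reads in collapsed lungs and 4032.5 in normal lungs. Its level was 959 RPM in collapsed lungs and 886 RPM in normal lungs, at rank 103 of the collapsed-lung and rank 108 of the normal-lung table. The ratio was 1.08 (1.03 to 1.14). Depth alone resolves this ratio from 1, but its sign does not survive a change of scaling, since the log2 ratio of 0.11 became -0.041 with median-of-ratios factors. miR-215, with the same seed, had 240 reads in collapsed lungs and 374.5 in normal lungs, which is 85.0 RPM and 82.3 RPM in that order. Its ratio of 1.03 (0.874 to 1.22) was not resolved from 1 at this depth. In normal lungs the read numbers of these near-identical miRNAs were both fractional and summed to the whole number 4407. Reads may therefore have been divided between them, and how much of their separate values this affects is not known.

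miR-194, the partner of both paralogs, had 759.5 reads on each of its rows in collapsed lungs and 1071 on each in normal lungs. Its sum over 2 rows was 1519 reads in collapsed lungs and 2142 in normal lungs. Per row the level was 269 RPM in collapsed lungs and 235 RPM in normal lungs, a ratio of 1.14 (1.04 to 1.26). Summed over its 4 rows, miR-194 stood at 540 RPM in collapsed lungs and 471 RPM in normal lungs, a ratio of 1.15 (1.07 to 1.22). The log2 ratio of this sum, 0.20, was between 0.041 and 0.080 under the 3 other scalings.

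miR-122, the hepatocyte miRNA, had 49 reads in collapsed lungs and 156 in normal lungs. Its level was 17.4 RPM in collapsed lungs, at rank 424, and 34.3 RPM in normal lungs, at rank 333. It was 1.97-fold lower in collapsed lungs (1.42 to 2.78), and this interval also holds ratios on the far side of 2-fold. A call needed a difference of 2-fold or more in either direction, with 1 outside the interval, and miR-122 missed that rule by its ratio of 0.506. Of the 487 measured rows, 14 had a smaller ratio. The row just below it in ratio was a human-named miR-224-3p at 0.492, called lower, and the row just above it was miR-29b at 0.521, not called.

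**Figure D2:**
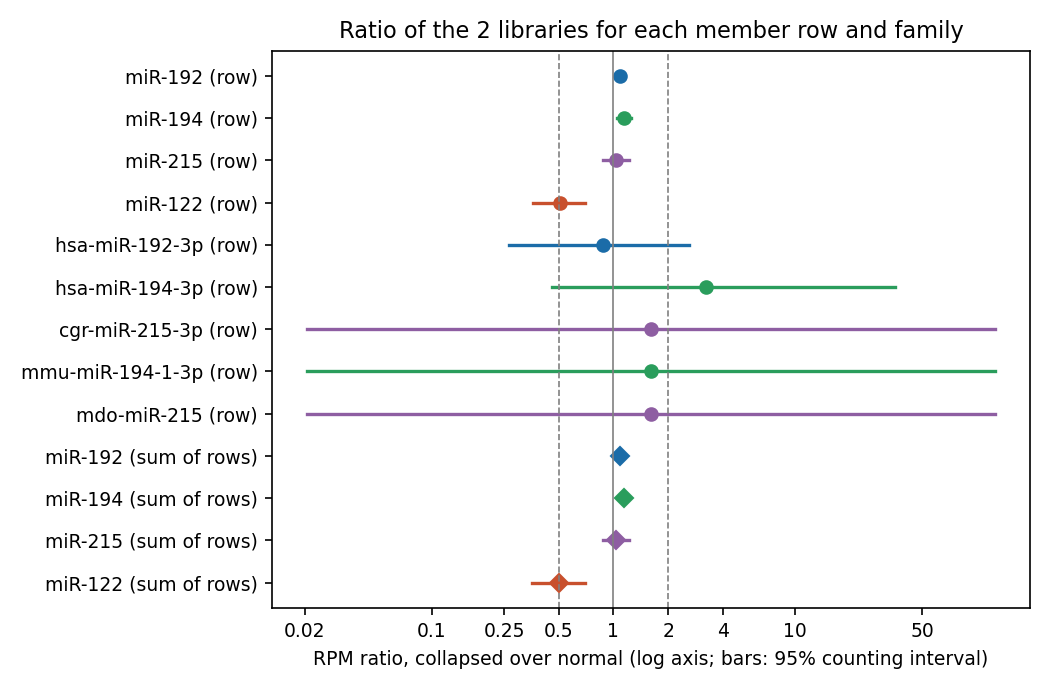
Ratio of collapsed to normal lungs in RPM (log axis) for each distinct member row with reads in both libraries (circles) and for the sum of each family's rows (diamonds), with 95% counting intervals as bars; solid line, equal levels; dashed lines, 2-fold. miR-192, miR-194 and miR-215 lie between 1.03 and 1.15, miR-122 lies at 0.506, and the scarce rows have intervals that span the 2-fold lines.

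By that rule 0 of the 5 measured member rows were called higher and 0 lower, while 31 of the 487 measured rows, 6.37%, were called in either direction, 3.49% higher and 2.87% lower. With 5 rows of 4 sequences, a count of 0 is near that background and is not a result about these miRNAs. Among the 5 rows 4 had log2 ratios above 0 and 1 below, and their median was 0.11, beside 0.09 over all measured rows. With median-of-ratios factors, a trimmed mean of ratios or the authors' normalized values, miR-122 was called lower, at log2 ratios of -1.14, -1.10 and -1.11 in place of -0.98. The share of measured rows called lower was 4.31%, 4.11% and 4.31% in that order. With a threshold of 1.5-fold miR-122 was 1 of 35 rows called lower, 7.19% of those measured, and the other member rows stayed uncalled. By level, 4 of the 136 measured rows under 30 RPM were called lower, 4 of the 109 rows between 30 and 100 RPM, and 6 of the 242 rows above. Rows called higher numbered 14, 3 and 0 in these classes. miR-122, at a mean of 25.8 RPM, falls in the first of them.

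**Figure D3:**
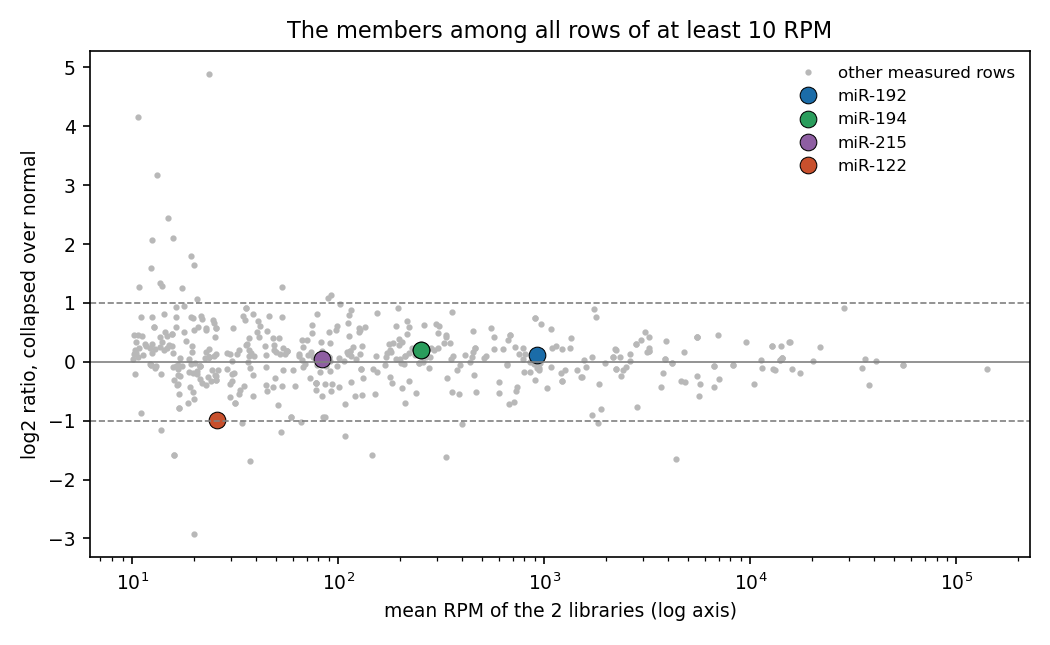
Log2 ratio of collapsed to normal lungs against the mean level of the libraries in RPM (log axis) for the 487 measured rows, with the member rows in colour; the 2 rows of miR-194 coincide, and dashed lines mark 2-fold. miR-192, miR-194 and miR-215 lie inside the bulk of rows, and miR-122 lies at -0.98.

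The authors' deposited table set 78 rows apart as different, 43 of them down in collapsed lungs, and miR-122 was the single member row among them. For miR-122 the authors' deposited table gave a fold of 0.463, with a Fisher's exact p of 1.45e-05. This p compares the libraries and not the conditions. The authors' deposited table gave a fold of 0.991 for miR-192, 1.05 for miR-194 and 0.946 for miR-215.

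Ratios between members inside a library do not depend on how the libraries are scaled. They are compared here between libraries for the 6 pairs of abundant strands, since different sequences enter a small RNA library with different efficiency and a ratio within 1 library is no ratio of molecules. There were 1.78 reads of miR-192 per read of miR-194 in collapsed lungs and 1.88 in normal lungs, and the quotient of these ratios was 0.947 (0.872 to 1.03). miR-192 had 11.3 reads per read of miR-215 in collapsed lungs and 10.8 in normal lungs, a quotient of 1.05 (0.883 to 1.25). Any division of reads between these near-identical miRNAs would affect this quotient by an amount that is not known. miR-194 had 6.33 reads per read of miR-215 in collapsed lungs and 5.72 in normal lungs, a quotient of 1.11 (0.927 to 1.33). For these 3 pairs counting error does not resolve the quotient from 1, and the intervals leave room for differences of up to 1.33-fold. When the paralogs were summed, as the 2 neighbours of a miR-194 copy, there were 1.94 reads per read of miR-194 in collapsed lungs and 2.06 in normal lungs, a quotient of 0.943 (0.870 to 1.02).

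Against each of the other members miR-122 was lower in collapsed lungs beyond counting error. miR-192 had 55.3 reads per read of miR-122 in collapsed lungs and 25.8 in normal lungs, a quotient of 2.14 (1.54 to 3.02). miR-194 had 31 reads per read of miR-122 in collapsed lungs and 13.7 in normal lungs, a quotient of 2.26 (1.62 to 3.20). miR-215 had 4.90 reads per read of miR-122 in collapsed lungs and 2.40 in normal lungs, a quotient of 2.04 (1.41 to 2.98). These 3 quotients rest on the same 49 and 156 reads of miR-122 and are not independent of each other.

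**Figure D4:**
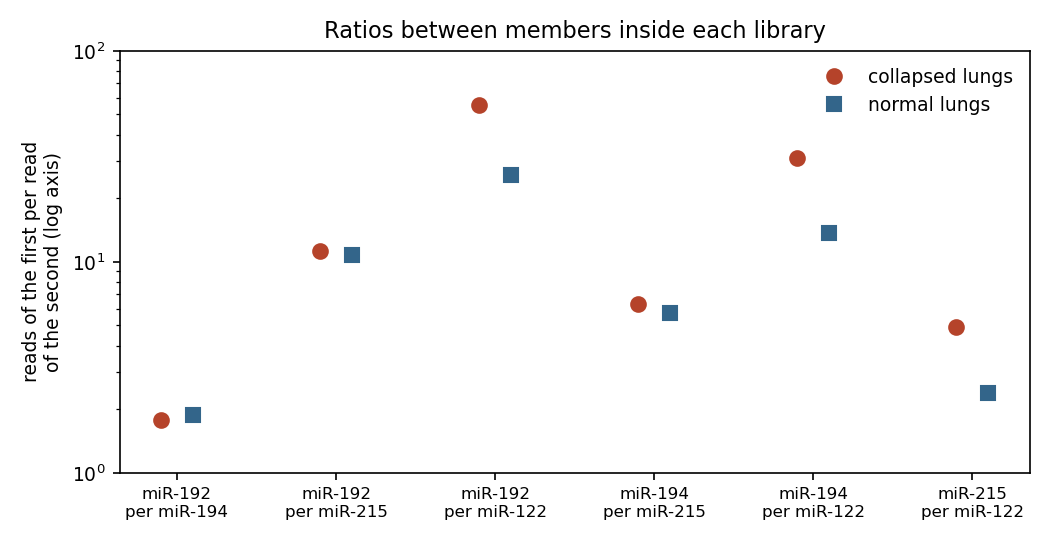
Reads of a member per read of another inside each library (log axis), for the 6 pairs of abundant strands, in collapsed lungs (circles) and normal lungs (squares). The 3 pairs without miR-122 nearly coincide, and the 3 pairs with miR-122 are higher in collapsed lungs, at 55.3, 31 and 4.90, against 25.8, 13.7 and 2.40 in normal lungs.

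The opposite arms held few reads, and those of miR-215 and miR-122 stayed under 3 reads in each library. They are among the 6 member rows under the minimum, which had between 0 and 11 reads a row and summed to 13 reads in collapsed lungs and 17 in normal lungs. hsa-miR-192-3p had 6 reads in collapsed lungs and 11 in normal lungs. The 3p arm was thus 0.221% of miR-192 reads in collapsed lungs (exact binomial interval 0.0812 to 0.481%) and 0.272% in normal lungs (0.136 to 0.486%). For miR-194 the 3p rows summed to 5 reads in collapsed lungs and 3 in normal lungs, 0.328% (0.107 to 0.764%) and 0.140% (0.0289 to 0.408%) of its reads in that order. For each of these miRNAs the intervals of the libraries overlap, which is no test of their difference. A difference in the use of arms between the libraries was not tested. cgr-miR-215-3p had 1 read in each library, as had the mouse-named miR-194-1-3p row and the opossum-named miR-215 row. hsa-miR-122-3p had 0 reads in collapsed lungs, which allows up to 1.06 RPM, and 1 read in normal lungs.

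The rows nearest to each member in level over the 2 libraries were sought among cattle-named rows of other families, by distance in log2 RPM. Next to miR-192 stood miR-1468 (0.029), miR-16b (0.070) and miR-494 (0.080). For miR-194 a single one of its 2 equal rows was used, at 269 RPM in collapsed lungs and 235 RPM in normal lungs. Next to that row stood mir-2904-1-p3 (0.035), miR-1839 (0.090) and miR-15b (0.14). They are near the row and not near the summed level of miR-194, 540 RPM in collapsed lungs and 471 RPM in normal lungs. Next to miR-215 stood miR-421 (0.063), miR-664b (0.12) and miR-1343-3p (0.14). miR-122 had no row as close, and the nearest were miR-449b at a distance of 0.45, with a log2 ratio of -0.39, and the equal rows of miR-133a at 0.49, with a log2 ratio of -0.30. A likeness over 2 libraries describes levels and nothing more.

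Lists of marker miRNAs were set beside the members to show what moved with them. Of the 3 hepatocyte miRNAs listed, miR-122 was the single one measured. miR-885 had 3 reads in collapsed lungs and 4 in normal lungs, and miR-802, also listed for gut and kidney, had 1 read in collapsed lungs and 0 in normal lungs. The hepatocyte list thus summed to 18.8 RPM in collapsed lungs and 35.4 RPM in normal lungs, nearly all of it miR-122. The part of hepatocyte or plasma RNA in the level of miR-122 was not tested. The 3 red blood cell miRNAs summed to 3015 RPM in collapsed lungs and 3149 RPM in normal lungs, with 0 of 5 measured rows called and a median log2 ratio of -0.05. The 4 leukocyte miRNAs summed to 2636 RPM in collapsed lungs and 3133 RPM in normal lungs, with 0 of 5 measured rows called and a median of -0.27. Their directions differed by name. miR-142, miR-150 and miR-223 were at log2 ratios of -0.26, -0.50 and -0.50. miR-155 was at 0.91, with 254 RPM in collapsed lungs and 135 RPM in normal lungs.

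The gut and kidney epithelium list, which holds miR-192, miR-194 and miR-215, had 0 of 7 measured rows called and a median log2 ratio of 0.11. Its other measured names were scarcer than miR-194. miR-31 stood at 40.7 RPM in collapsed lungs and 41.3 RPM in normal lungs, miR-204, a miRNA of kidney and eye, at 79.0 and 61.3 RPM, and miR-147 at 17.0 and 24.2 RPM in the same order. The general epithelium list, led by miR-200b and miR-200a, had 0 of 10 measured rows called and a median of -0.06. Of these rows 7 had log2 ratios below 0. Summed by name, miR-375 was at a log2 ratio of -0.53 and miR-141 at -0.44, while miR-205 was at 0.70. The list summed to 8628 RPM in collapsed lungs and 9224 RPM in normal lungs, several times the level of the 4 miRNAs described here.

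The p53-responsive list was divided. It had 14 measured rows of 8 names and a median log2 ratio of -0.48. Of these rows 0 were called higher and 6 lower, while 2.87% of all measured rows were called lower. All 6 were rows of miR-34b or miR-34c, which also mark multiciliated airway cells. They include repeated rows of an opossum-named miR-34b-5p with equal values, so the median by row weights these names. Summed by name, miR-34b, miR-34c and miR-145 had log2 ratios below 0. miR-34a, miR-107, miR-192, miR-194 and miR-215 had log2 ratios above 0. The 4 rows of miR-192, miR-194 and miR-215 in the list were not called. miR-34c summed to 2137 RPM in collapsed lungs and 6670 RPM in normal lungs. miR-34a stood at 620 RPM in collapsed lungs and 527 RPM in normal lungs. The cause of these differences was not tested. The listed miR-107 was at a log2 ratio of 0.14 and miR-145, also a smooth muscle miRNA, at -0.53.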

How the data were processed

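Small RNA libraries were made from Trizol-extracted RNA with a TruSeq small RNA kit, per the labels' protocols, on genome build bosTau8, per the submitters' processing notes. No source used here names the aligner, adapter trimming or miRNA release. The deposited table holds, per the file headers, raw read counts per row, reads scaled by the authors per library (a normalized signal), a fold change (a ratio, collapsed over normal) with its log2 value, and p-values of a chi-square and a Fisher's exact test. Raw counts were exactly whole in 84.3% of rows in the collapsed-lung and 84.5% in the normal-lung library, and were rounded for intervals only. The authors' normalized signal equals reads over 0.823 in collapsed and 1.21 in normal lungs. The 2 emptied lines of the table were not analysed here.

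RPM, ratios and exact conditional binomial intervals, and conditional odds ratios for pairs, were computed with Python 3.11.15 and scipy 1.17.1. A pseudocount of 0.5 read entered both libraries where either had 0. The code was tested on simulated data. PCR reads without molecular identifiers are not independent molecules, so intervals and floors cover counting error only. With 1 library per group no count model was fitted. Members and lists were chosen with earlier results of these data known. All member rows are accounted for. Those measured are given in full, and each abundant strand has its 3 nearest cattle-named rows.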

Additional observations from a re-analysis of the deposited data

How the results depend on the processing

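The sign of the family sums of miR-192, of miR-215 and of all 4 miRNAs depends on scaling, while miR-194 stayed above 0 and miR-122 below 0 under each alternative run. With median-of-ratios factors, a trimmed mean of M-values and the authors' normalized values, in that order, the log2 ratio of miR-192 was -0.041, -0.0024 and -0.014 in place of 0.11. That of miR-194 was 0.041, 0.080 and 0.068 in place of 0.20, and that of all 4 together was -0.036, 0.0031 and -0.0085 in place of 0.12. That of miR-215 was -0.10, -0.065 and -0.076 in place of 0.051, within its counting interval. Each scaling lowers these ratios alike, which by construction accounts for these shifts. Under each of these 3 scalings, and with a 1.5-fold threshold, 1 member row (miR-122) was called lower in place of 0. At 1.5-fold, 7.19% of measured rows were called lower. A pseudocount of 5 reads left it uncalled, with its log2 ratio at -0.89. With a minimum of 100 RPM miR-122 was not measured. Summing cattle-named rows only, or each distinct sequence once, kept every family sum within its counting interval. Of the 44 values for sums and calls under alternatives, 31 stayed within the interval or count. No paired analysis was possible because each group is a single library. The ratio of miR-122 rests on 49 reads in collapsed lungs and 156 in normal lungs.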

Other observations

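The authors' deposited table gives miR-192 a chi-square p of 0.000419 beside a fold of 0.991 and a log2 value of -0.013, and gives each row of miR-194 a chi-square p of 0.00269 beside a log2 value of 0.065. Over the authors' deposited table, 170 rows had a log2 value within 0.1 of 0, and 35 of them had both deposited p-values at or below 0.05. Scaled to library totals instead, the ratio of miR-192 was 1.08 and its direction was opposite to that in the authors' deposited table. No source used here gives the totals on which the authors' tests were run. The cause was not tested.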
